A study of Mus musculus with 4 samples.

Results

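The genes described here are the interferon-stimulated genes, the antiviral and antimicrobial genes that cells switch on when type I or type II interferon binds its receptor. The list held 41 gene symbols, chosen for their known role but with earlier results of these data known. A gene was measured through the probe set with that 1 symbol and the highest mean over the 4 arrays. Of the 41 genes 38 were measured, out of 12393 genes on the array with a probe set of 1 symbol. Isg15 had only a probe set that carries several symbols, and for Ifi44 and Xaf1 no probe set was matched, so these 3 were not analysed here. The RNA came from dendritic cells (DC) of the spleen of female C57BL/6 mice aged 8 to 12 weeks. In the TCDD group 3 mice were given 10 µg/kg of TCDD, the dioxin that activates the aryl hydrocarbon receptor (AhR), by injection into the peritoneum, and in the DMSO group 3 mice were given the DMSO solvent, both in corn oil; all were killed after 24 h. The spleens were pooled, a BSA gradient and magnetic sorting then gave DC of over 90% purity, and 2 arrays, numbered as biological replicates, were run per group on amplified RNA. Whether each array had mice of its own is not stated, so the p-values measure only the spread between these arrays.

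Type I interferons signal through the receptor chains IFNAR1 and IFNAR2 and the kinases JAK1 and TYK2 to a transcription factor complex that includes STAT2 and IRF9 and binds the interferon-stimulated response element (ISRE). Type II interferon, interferon-gamma, signals through IFNGR1 and IFNGR2, JAK1 and JAK2 to genes that carry the gamma-activated site (GAS). DC both make type I interferon, above all the plasmacytoid subset, and respond to it with maturation and better antigen presentation, and they express many interferon-stimulated genes at a basal level without infection.

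The response elements are shown first because the transcription factors of the interferon response bind them. Promoter sequences were taken from RefSeq on the build GRCm38.p6, as windows of 250 bases before to 50 after each gene start, and 32 of the 41 genes had an entry. The ISRE core TTTCNNTTTC, searched on both strands, stood in the windows of 15 of these 32 genes (46.9%), against 3.99% of all 27025 genes and 3.44% of all 32851 windows. The GAS core TTCNNNGAA stood in those of 10 genes (31.2%), against 9.55% of all genes and 8.30% of all windows, and in 1 window of a member an ISRE and a GAS match overlapped. The AhR response element core GCGTG, also searched on both strands, stood in those of 12 genes (37.5%), against 35.2% of all genes and 32.4% of all windows, a share close to that of all genes. A gene can have several windows, and such a match is a description of letters only. Among the measured genes with an entry, the median difference between TCDD and DMSO was -0.20 for the 14 with an ISRE match and -0.30 for the 15 without, on the log2 scale.

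The following stretches of 120 bases lie before the gene start, with matches of the ISRE or GAS core in capitals, 5′ to 3′ along the gene. The first 4 belong to genes with the largest differences between the groups among those without overlap that hold such a match upstream of the start. Mx1 and Parp14, which had larger differences, had no promoter entry and could not be searched. The last 3, Ifit1, Ifit2 and Ifit3, belong to genes whose values varied between replicates, chosen after their values were seen. Samhd1, at chr2:157135212-157135331 on the minus strand, holds a GAS match.
Samhd1: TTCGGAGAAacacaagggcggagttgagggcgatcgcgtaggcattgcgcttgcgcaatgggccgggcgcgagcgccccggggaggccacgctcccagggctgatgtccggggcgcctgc
Oas1a, at chr5:120907526-120907645 on the minus strand, holds a pair of overlapping ISRE matches close to the start and a GAS match further away.
Oas1a: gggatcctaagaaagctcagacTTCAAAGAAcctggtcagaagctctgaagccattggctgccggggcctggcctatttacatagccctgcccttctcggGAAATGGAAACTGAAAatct
Isg20, at chr7:78913304-78913423 on the plus strand, holds a GAS match.
Isg20: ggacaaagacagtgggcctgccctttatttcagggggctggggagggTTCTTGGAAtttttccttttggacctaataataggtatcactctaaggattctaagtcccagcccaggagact
Stat2, at chr10:128270276-128270395 on the plus strand, holds an ISRE match.
Stat2: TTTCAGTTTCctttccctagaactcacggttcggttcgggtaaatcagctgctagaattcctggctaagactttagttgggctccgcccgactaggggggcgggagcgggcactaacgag
Ifit1, at chr19:34640769-34640888 on the plus strand, holds a pair of ISRE matches.
Ifit1: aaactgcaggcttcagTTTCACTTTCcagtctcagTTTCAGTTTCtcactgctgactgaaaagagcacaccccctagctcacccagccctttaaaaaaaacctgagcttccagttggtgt
Ifit2, at chr19:34550453-34550572 on the plus strand, holds a GAS match and no ISRE match.
Ifit2: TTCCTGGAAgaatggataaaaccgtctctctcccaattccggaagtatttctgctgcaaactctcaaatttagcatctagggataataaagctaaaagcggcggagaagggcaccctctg
Ifit3, at chr19:34583373-34583492 on the plus strand, holds a pair of ISRE matches.
Ifit3: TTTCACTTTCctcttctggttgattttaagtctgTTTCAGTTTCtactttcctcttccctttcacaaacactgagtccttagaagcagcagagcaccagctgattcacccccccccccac

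No interferon-stimulated gene passed the test between TCDD and DMSO 24 h after injection, and on its brightest probe set no measured gene of the group differed by 2-fold in either direction. Values are given as log2, after RMA, so a difference of 1 is 2-fold. The differences of the 38 genes ran from -0.90 for Mx1 to 0.35 for Lgals3bp, with a median of -0.20; 27 lay below 0, 9 above 0 and 2 at 0. Over all genes 49.2% lay below 0 and 43.6% above, and over genes at or above the dim threshold, a mean log2 value of 5.525, these shares were 57.2% and 37.2%. The median over all 12393 genes was 0.00, and over genes at or above the dim threshold it was -0.10. The list's median became 0.0063 when the arrays were quantile-normalized again, and that of all genes 0.037. By limma with Benjamini-Hochberg adjustment 0 of 38 genes were called, and 0 of 22626 probe sets (0%), at adjusted p-values of 0.351 to 1 for the 38. At an unadjusted p under 0.05 limma found 4 of the 38 genes (10.5%), namely Mx1, Parp14 and Stat2 lower and Ifitm3 higher, against 13.1% of all probe sets and 14.5% of the genes.

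In 10 of the 38 genes (26.3%) both TCDD arrays lay below both DMSO arrays, against 19.4% of all genes and 24.0% of genes at or above the dim threshold. In 1 gene (2.63%) both TCDD arrays lay above both DMSO arrays, against 20.0% of all genes and 16.9% of those at or above the threshold. These counts of 10 and 1 became 6 and 3 under quantile normalization. Leaving out any 1 array gave 16 to 19 lower and 4 to 6 higher, but fewer arrays make overlap rarer for any gene. The shares of all genes under these settings are not given here, so these counts cannot be compared with them. Of the 38 genes 36 were at or above the dim threshold, all but Iigp1 and Cmpk2. The share of lower genes lay near that of the genes at or above the threshold. A difference of at least 0.5 in size was found in 4 of the 38 genes (10.5%) against 19.9% of all genes and 25.5% of those at or above the threshold. A difference of at least 1 was found in 0, against 3.01% and 4.21%. The 95% limma intervals of 17 genes lay wholly between -1 and 1, so for these a 2-fold difference lay outside the interval, while for 21 the interval reached further. In bulk RNA fewer cells of a type and less RNA per cell cannot be told apart.

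**Figure D1:**
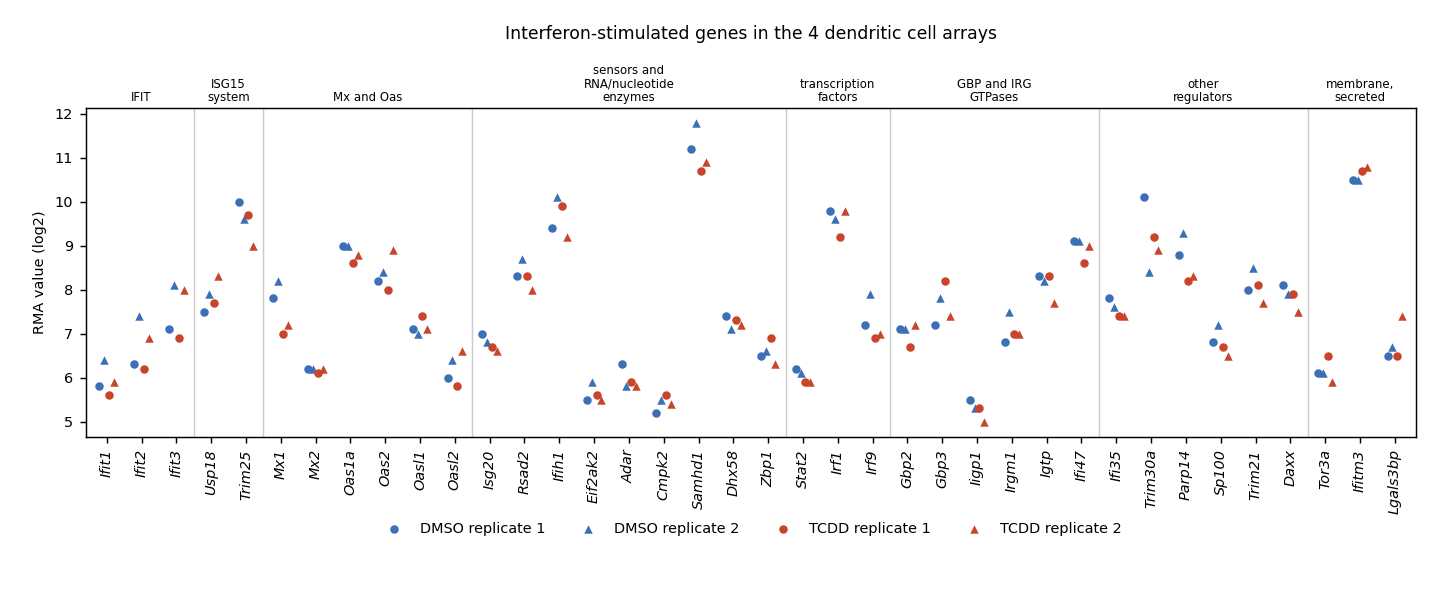
RMA values (log2, vertical axis) of the 38 interferon-stimulated genes in each array, grouped by role; blue marks DMSO, red TCDD, circles replicate 1 and triangles replicate 2. For Mx1, Parp14 and Samhd1 both red points lie below both blue ones, while for Ifit1, Ifit2 and Ifit3 both triangles lie above the circles of their own group.

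Of the transcription factors of the response, Stat2 and Irf9, both parts of the complex that binds the ISRE, were lower in both TCDD arrays, by different amounts. Irf9 read 7.2 and 7.9 on the DMSO arrays and 6.9 and 7.0 on the TCDD arrays, which is a difference of -0.60 (SE 0.294, n = 2 per group) and of -0.95 to -0.25 when 1 array was left out. The DMSO arrays were 0.7 apart, so the difference was smaller than the spread within the control group. Stat2 read 6.2 and 6.1 on the DMSO arrays and 5.9 on both TCDD arrays, a small difference of -0.25 (SE 0.0744) that exceeded the spread within either group; its dimmer probe set gave -0.30. Irf1, which drives many interferon-gamma targets, read 9.8 and 9.6 on the DMSO arrays and 9.2 and 9.8 on the TCDD arrays. TCDD replicate 2 therefore matched the higher DMSO array and only TCDD replicate 1 was lower.

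Mx1, a dynamin-like GTPase that blocks influenza virus and of which C57BL/6 mice carry a defective copy, had the largest difference of the group. It read 7.8 and 8.2 on the DMSO arrays and 7.0 and 7.2 on the TCDD arrays, which is a difference of -0.90 (SE 0.192, limma adjusted p = 0.351; 95% interval -1.51 to -0.29), or a 0.536-fold level. Both TCDD arrays were lower by similar amounts, at -1.0 and -0.80 against the DMSO mean, and the gap between the groups was larger than the spread within them. Mx2, its neighbour in the family, read 6.2 on both DMSO arrays and 6.1 and 6.2 on the TCDD arrays, so its groups overlapped. Of the oligoadenylate synthetase family, which makes the messenger that activates RNase L, Oas1a read 9.0 on both DMSO arrays and 8.6 and 8.8 on the TCDD arrays, which is a difference of -0.30 (SE 0.102) that became 0.05 under quantile normalization and 0.0016 under cyclic loess. Oas2 read 8.2 and 8.4 on the DMSO arrays and 8.0 and 8.9 on the TCDD arrays, with the TCDD arrays on either side of the controls. The oligoadenylate synthetase-like genes Oasl1 and Oasl2 differed by 0.20 and 0.00.

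The IFIT genes, whose proteins bind foreign RNA and block its translation, overlapped between the groups and varied widely between replicates. Ifit1 read 5.8 and 6.4 on the DMSO arrays and 5.6 and 5.9 on the TCDD arrays. Ifit2 read 6.3 and 7.4 on the DMSO arrays and 6.2 and 6.9 on the TCDD arrays. Ifit3 read 7.1 and 8.1 on the DMSO arrays and 6.9 and 8.0 on the TCDD arrays. In each gene replicate 2 was the higher array of its group and the groups overlapped. The differences between the groups were -0.35 (SE 0.280), -0.30 (SE 0.533) and -0.15 (SE 0.607), each smaller than the gap of 0.6, 1.1 and 1.0 between the DMSO arrays; that of Ifit3 was above 0 under quantile normalization and cyclic loess. The intervals were wide, and that of Ifit3 ran from -2.07 to 1.77, so a change of 2-fold lay within it in either direction.

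In the ISG15 system, which attaches the ubiquitin-like protein ISG15 to other proteins, Usp18, the protease that removes ISG15 and also restrains the type I receptor, read 7.5 and 7.9 on the DMSO arrays and 7.7 and 8.3 on the TCDD arrays. Its difference of 0.30 (SE 0.30) came from TCDD replicate 2 alone, since TCDD replicate 1 equalled the DMSO mean. Trim25, a ubiquitin and ISG15 ligase, gave different answers by probe set. Its brightest probe set read 10.0 and 9.6 on the DMSO arrays and 9.7 and 9.0 on the TCDD arrays, with overlap and a difference of -0.45. Another read 8.5 and 8.1 on the DMSO arrays and 7.1 and 7.3 on the TCDD arrays, which is a difference of -1.1 (SE 0.192) without overlap, and the last differed by -0.05. The size of a Trim25 difference therefore depended on the probe set.

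The sensors of foreign nucleic acid and the enzymes that act on RNA or nucleotides made up 9 measured genes. Of these, Samhd1 and Isg20 were lower in both TCDD arrays and the other 7 overlapped. Among all genes at or above the dim threshold 24.0% were lower without overlap. Samhd1, which breaks down the deoxynucleotides that retroviruses need, read 11.2 and 11.8 on the DMSO arrays and 10.7 and 10.9 on the TCDD arrays on its brightest probe set, a difference of -0.70 (SE 0.264). Its other probe sets differed by 0.00, -0.40 and 0.05, so the lower value was shared by 1 of the other 3. Isg20, an exonuclease of single-stranded RNA, read 7.0 and 6.8 on the DMSO arrays and 6.7 and 6.6 on the TCDD arrays. Ifih1, the gene of the sensor MDA5 for long double-stranded RNA, read 9.4 and 10.1 on the DMSO arrays and 9.9 and 9.2 on the TCDD arrays, with neither group higher. Dhx58, which encodes the related LGP2, differed by 0.00, and Zbp1, a sensor of Z-form nucleic acid, by 0.05.

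Rsad2, the gene of viperin, which makes a nucleotide that stops viral RNA synthesis, read 8.3 and 8.7 on the DMSO arrays and 8.3 and 8.0 on the TCDD arrays, which is a difference of -0.35 that became 0 under quantile normalization and -0.0773 under cyclic loess; a further probe set above the dim threshold differed by -0.45. The remaining probe set, under that threshold, gave 0.60, because TCDD replicate 2 read 6.0 where the other arrays read 4.9 to 5.1. Its neighbour Cmpk2, a mitochondrial nucleotide kinase, differed by 0.15 at a level below the threshold. Eif2ak2, the gene of the double-stranded RNA kinase PKR, and Adar, an RNA-editing enzyme, differed by -0.15 and -0.20, both with overlap.

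The interferon-inducible GTPases of the GBP and IRG families, which attack vacuoles that hold microbes and are strong targets of interferon-gamma, had 5 of 6 differences below 0 and a median of -0.20; under quantile normalization 1 of the 6, Iigp1 at -0.30, was below 0. Only Ifi47 stood without overlap, reading 9.1 on both DMSO arrays and 8.6 and 9.0 on the TCDD arrays, which is a difference of -0.30 (SE 0.174) that was above 0 under quantile normalization and cyclic loess. Gbp3 read 7.2 and 7.8 on the DMSO arrays and 8.2 and 7.4 on the TCDD arrays, with TCDD replicate 1 the highest array. Gbp2 differed by -0.15 on its brightest probe set and by 0.45 on the other, and Irgm1, Igtp and Iigp1 by -0.15, -0.25 and -0.25.

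Of the nuclear and other regulators all 6 measured genes had a difference below 0, against 57.2% of genes at or above the dim threshold. Without overlap 3 of the 6 were lower, against 24.0% of those genes. In the level ranges from 6 to 12 that share was 15.8% to 39.8% of all genes. Quantile normalization moved the 6 differences to -0.45 for Parp14, -0.31 for Sp100, -0.05 for Ifi35 and Daxx, -0.0375 for Trim21 and 0.1375 for Trim30a. Parp14, an ADP-ribosyltransferase, read 8.8 and 9.3 on the DMSO arrays and 8.2 and 8.3 on the TCDD arrays, which is a difference of -0.80 (SE 0.216, limma adjusted p = 0.379; 95% interval -1.48 to -0.12). Both TCDD arrays were lower by nearly the same amount, -0.85 and -0.75 against the DMSO mean. Sp100, a nuclear body protein, read 6.8 and 7.2 on the DMSO arrays and 6.7 and 6.5 on the TCDD arrays, while Ifi35 read 7.8 and 7.6 on the DMSO arrays and 7.4 on both TCDD arrays. These differences of -0.40 and -0.30 were small beside that of Parp14. Daxx, a histone chaperone, and Trim21, a receptor for antibody-bound virus, differed by -0.30 and -0.35 with overlap. Trim30a had the widest spread of the group on its brightest probe set, at 10.1 and 8.4 in DMSO, which left an interval from -2.43 to 2.03. Its other probe set also differed by -0.20.

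The 3 membrane and secreted members all had differences above 0 with all arrays. Ifitm3, a membrane protein that blocks entry of enveloped viruses, read 10.5 on both DMSO arrays and 10.7 and 10.8 on the TCDD arrays, which is a difference of 0.25 (SE 0.0744, limma adjusted p = 0.379). It was the single member of the 38 higher without overlap, and its interval ran from 0.014 to 0.486. Lgals3bp, a secreted glycoprotein, read 6.5 and 6.7 on the DMSO arrays and 6.5 and 7.4 on the TCDD arrays, so its difference of 0.35 came from TCDD replicate 2. Tor3a differed by 0.10, and TCDD replicate 2 was its lowest array.

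**Figure D2:**
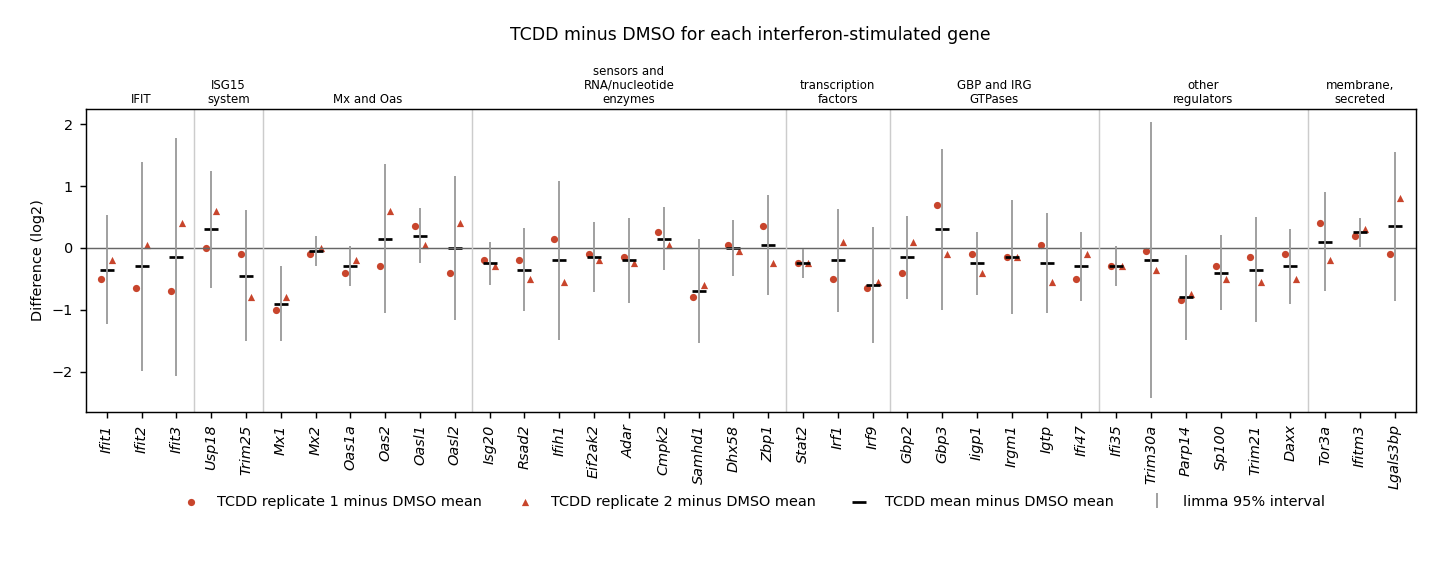
Differences from DMSO (log2, vertical axis) for the 38 genes by role; black bars are TCDD mean minus DMSO mean, grey lines the 95% limma intervals, and red circles and triangles TCDD replicates 1 and 2 minus the DMSO mean. The intervals of Mx1, Parp14, Stat2 and Ifitm3 leave out 0, and in the IFIT genes the circle lies well below the triangle.

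The 2 TCDD arrays were also set apart against the DMSO mean, since an average can hide opposite values. For TCDD replicate 1 the 38 genes had a median of -0.15, with 28 below 0. All genes had a median of 0.05, with 4543 of 12393 below 0, and genes at or above the dim threshold 0.05, with 3752 of 8768. By mean level, the median of all genes was 0.10 at 4 to 6 and at 6 to 7, and -0.05 at 7 to 8. It was -0.20 at 8 to 9 and -0.15 at 9 to 12. For TCDD replicate 2 the 38 genes had a median of -0.20, with 26 below 0. All genes had a median of -0.10, with 7314 below 0, and genes at or above the threshold -0.20, with 5794, the same median as the members. By mean level, that of all genes was 0.05 at 4 to 6, -0.10 at 6 to 7 and -0.30 at 7 to 8. It was -0.50 at 8 to 9 and at 9 to 12. The values of single members differed between the arrays. In TCDD replicate 1 the values ran from -1.0 for Mx1 to 0.70 for Gbp3, and Ifit3 stood at -0.70, Ifit2 at -0.65 and Irf1 at -0.50. In TCDD replicate 2 they ran from -0.80 for Mx1 and Trim25 to 0.80 for Lgals3bp, and Ifit3 stood at 0.40, Oas2 and Usp18 at 0.60 each and Irf1 at 0.10. Both sets of values use the same DMSO mean. Of the 38 genes 14 had TCDD arrays at least 0.5 apart, against 27.7% of all genes and 34.5% of genes at or above the dim threshold.

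Some members had their higher values in replicate 2 of both groups. Ifit1, Ifit2, Ifit3, Oasl2 and Usp18 were higher in replicate 2 than in replicate 1 by at least 0.3 in DMSO and again in TCDD, a rule set after the values were seen. These 5 of 38 genes (13.2%) compare with 2.78% of all genes and 3.60% of genes at or above the dim threshold. Oasl2 read 6.0 and 6.4 on the DMSO arrays and 5.8 and 6.6 on the TCDD arrays. Counting any size, 11 of the 38 genes (28.9%) were higher in replicate 2 in both groups, against 9.97% of all genes and 10.2% of genes at or above the threshold. The opposite order in both groups was found in 9, against 21.6% and 22.4%. In each of the 5 genes the gap between the DMSO arrays was larger than the difference between TCDD and DMSO.

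Other members, among them the type I targets Rsad2 and Isg20 on their brightest probe sets, did not share the pattern. Another Rsad2 probe set above the dim threshold did have its higher values in replicate 2 of both groups. It read 6.2 and 6.3 on the DMSO arrays and 5.6 and 6.0 on the TCDD arrays. Ifih1 and Gbp3 were higher in DMSO replicate 2 by 0.7 and 0.6 and lower in TCDD replicate 2 by 0.7 and 0.8. Trim30a was lower in replicate 2 in both groups on its brightest probe set, by 1.7 in DMSO. Its other probe set, above the dim threshold, had the opposite order. It read 6.8 and 8.0 on the DMSO arrays and 6.8 and 7.6 on the TCDD arrays, higher in replicate 2 in both groups. Across the 38 genes the replicate differences in DMSO and TCDD had a Pearson's r of 0.291, against -0.194 across all genes; these are descriptions across genes, which are not independent replicates, in 4 arrays. No source used here says whether a replicate number marks a shared day or sort.

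**Figure D3:**
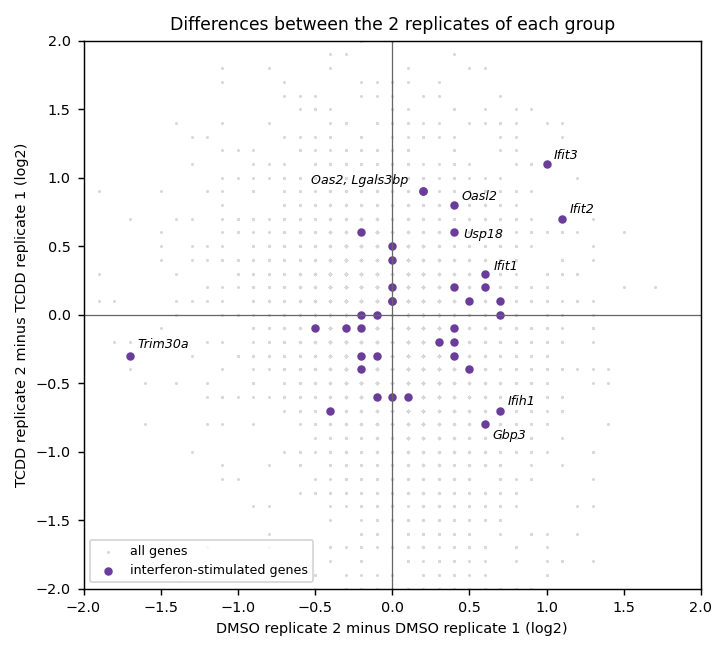
Replicate 2 minus replicate 1 (log2) in DMSO on the horizontal axis and in TCDD on the vertical axis; purple points are the 38 interferon-stimulated genes and grey points all genes within the axes, which stop at 2 in either direction. Ifit3 at 1.0 and 1.1, Ifit2 at 1.1 and 0.7, and Ifit1, Oasl2 and Usp18 lie in the upper right, where both groups had the higher value in replicate 2.

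The differences of the group were next read against genes of the same level. Over all genes the median difference moved from 0.10 at mean levels of 4 to 6 to -0.35 at levels of 8 to 9 and of 9 to 12, so in general the brighter genes had the lower TCDD values. The members' medians in those ranges were -0.20 (5 genes), -0.30 (7 genes) and -0.20 (6 genes). At levels of 6 to 7 the members' median was -0.05 (9 genes) against 0.00 for all genes. At levels of 7 to 8 it was -0.15 (11 genes) against -0.20. Against the median of all genes in its own range, 16 members were lower and 19 higher. Mx1, at -0.90 in the range of 7 to 8 where the median of all genes was -0.20 and the lower quartile -0.45, lay furthest below, by -0.70. In all, 12 members lay below the lower quartile of their range, 6 above the upper quartile and 20 between them. Parp14 at -0.80, Samhd1 at -0.70, Irf9 at -0.60 and Sp100 at -0.40 were among those below, as were Ifit1 and Ifit2, whose groups overlapped. Ifitm3 at 0.25 lay above the upper quartile of -0.05 in the range of 9 to 12, where 2.10% of all genes were higher in TCDD without overlap.

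**Figure D4:**
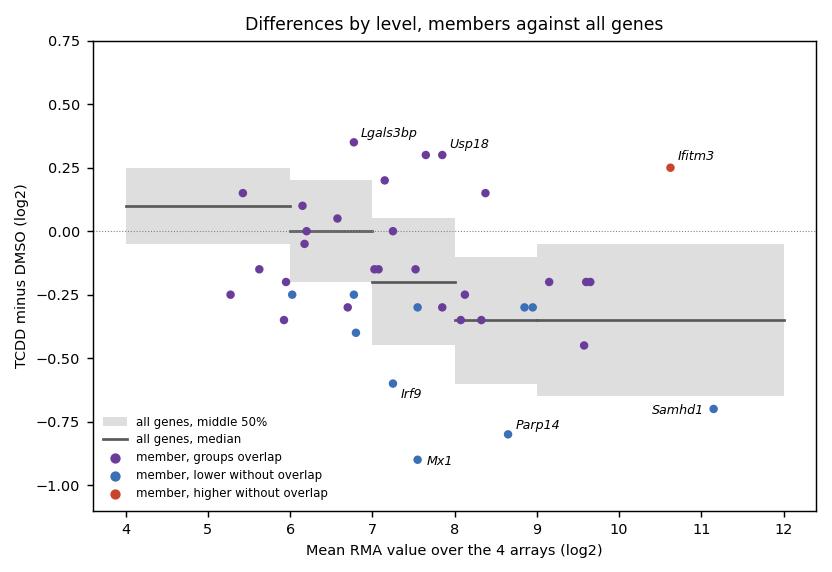
TCDD minus DMSO (log2, vertical axis) against the mean level over the 4 arrays (log2, horizontal axis) for the 38 genes, coloured by overlap of the groups; grey bands and dark lines give the middle 50% and the median of all genes in each range of level. The bands hold 20 of the 38 members, and Mx1, Parp14 and Irf9 lie below and Ifitm3 above them.

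Of the other genes of the interferon pathway 43 were measured, and limma called 0; at an unadjusted p under 0.05 there were 6 lower and 1 higher, against 14.5% of all genes in both directions. Of the 43 genes 12 were lower and 5 higher without overlap, where all genes had 19.4% lower and 20.0% higher and those at or above the dim threshold 24.0% and 16.9%, and the median difference was -0.20, the same as for the interferon-stimulated genes. All 4 receptor chains were lower without overlap, and their differences stayed below 0 under each scaling. Quantile normalization took Ifnar1 to -0.81, Ifnar2 to -0.20, Ifngr1 to -0.39 and Ifngr2 to -0.05. Ifnar1, a chain of the type I receptor, read 7.6 and 7.3 on the DMSO arrays and 6.1 and 6.9 on the TCDD arrays, which is a difference of -0.95 (SE 0.353, limma adjusted p = 0.435). Its partner Ifnar2 read 7.8 and 7.9 on the DMSO arrays and 7.4 on both TCDD arrays, which is a difference of -0.45 (SE 0.0744), and its other probe set gave -0.40. Both chains were lower, Ifnar1 more so in TCDD replicate 1.

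Ifngr1, the ligand-binding chain of the interferon-gamma receptor, read 10.0 and 9.7 on the DMSO arrays and 8.9 and 9.2 on the TCDD arrays, which is a difference of -0.80 (SE 0.183). Ifngr2 differed by -0.15, close to the rounding step of 0.1, and its other probe set, below the dim threshold, by 0.30. None of these passed the threshold. Of the 6 interferon genes measured 2, Ifna1 and Ifna2, were at or above the dim threshold, with differences of 0.00 and 0.10. Ifnb1 read 5.3 and 5.0 on the DMSO arrays and 5.4 and 5.9 on the TCDD arrays, higher by 0.50 without overlap, and Ifng between 4.3 and 5.0 in the 4 arrays. Both were under the dim threshold, so a difference there may go unseen. Ifna5, also below it, was higher by 0.20 without overlap.

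Of the inhibitors, Socs1, which switches off JAK kinases and is itself induced by interferon, had the higher TCDD values, with readings of 5.8 and 5.7 on the DMSO arrays and 6.1 and 6.7 on the TCDD arrays and a difference of 0.65 (SE 0.255). The TCDD arrays differed from each other about as much as the groups did. The phosphatase gene Ptpn11 and the signalling inhibitor gene Pias1 were lower without overlap, at -0.50 and -0.60, which became -0.1375 and -0.25 under quantile normalization. Of the dim probe sets of Ptpn11, one was higher without overlap, by 0.30, and another differed by -0.10. Tbk1, the kinase that activates IRF3 behind the nucleic acid sensors, read 9.2 and 9.4 on the DMSO arrays and 8.7 and 8.5 on the TCDD arrays, which is a difference of -0.70 (SE 0.131). Quantile normalization took Tbk1 to -0.35. The kinase gene Tyk2 differed by -0.50, or -0.1625 under quantile normalization, and the DNA sensor gene Tlr9 by 0.25, both without overlap.

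Of the 11 interferon-gamma targets in the list 9 had differences below 0, and 4 were lower and 1 higher without overlap. Among all genes the share lower without overlap was 19.4%, and 29.7% to 39.8% in the level ranges from 7 to 12, where most of these targets lay. Cxcl9, a T cell chemokine, read 9.4 and 9.3 on the DMSO arrays and 8.3 and 8.8 on the TCDD arrays, which is a difference of -0.80 (SE 0.216), or -0.4375 under quantile normalization. Ciita, the master regulator of MHC class II genes, and Psmb9, an immunoproteasome subunit, differed by -0.55 each. Quantile normalization took Ciita to -0.3375 and Psmb9 to -0.15, values without 1 array ran from -0.80 to -0.30 and from -0.85 to -0.25, and another probe set of Ciita differed by 0.05. The peptide transporter gene Tap1 differed by -0.30, which was above 0 under quantile normalization (0.0875) and cyclic loess (0.0079); its 3 dim probe sets differed by 0.40, 0.05 and 0.20. The tryptophan-degrading enzyme gene Ido1 was the higher one, by 0.45. For these targets TCDD replicate 1 had a median of -0.65 and TCDD replicate 2 one of -0.20; in each of these arrays 9 of the 11 lay below the DMSO mean.

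**Figure D5:**
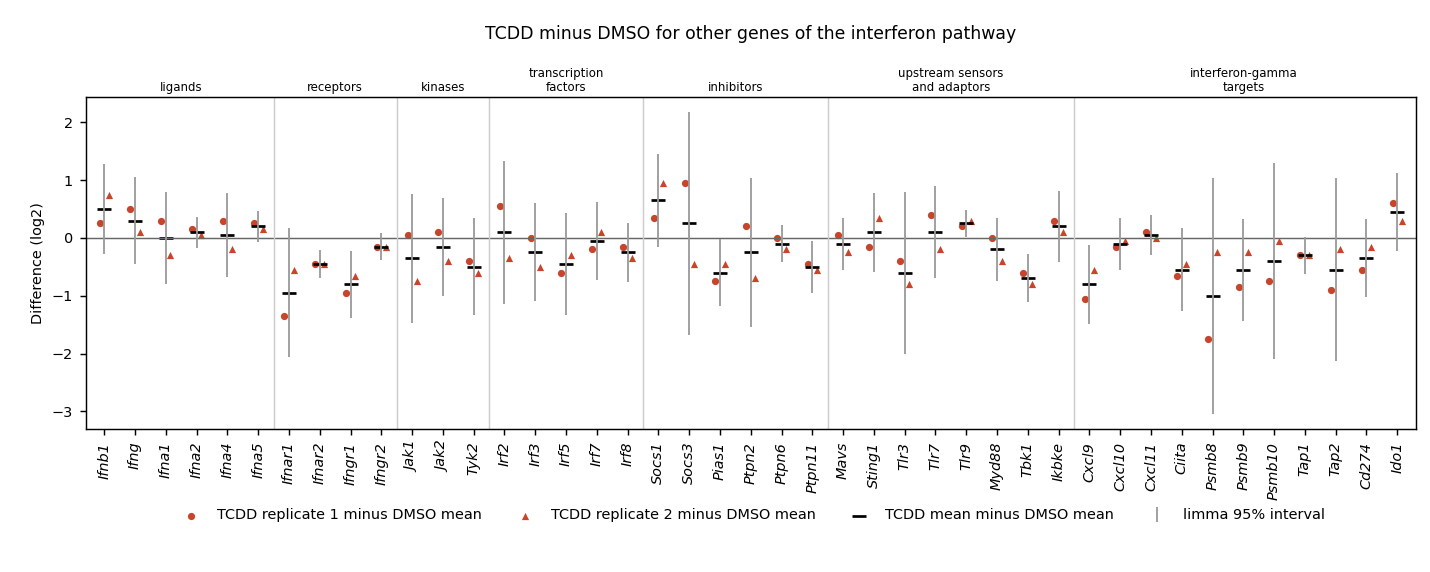
Differences from DMSO (log2, vertical axis) for 43 other genes of the interferon pathway by role, drawn as black bars (TCDD mean minus DMSO mean), grey 95% limma intervals, and red circles and triangles for TCDD replicates 1 and 2 minus the DMSO mean. All 4 receptor chains lie below 0 in both TCDD arrays, and the median of the interferon-gamma targets is -0.65 in replicate 1 and -0.20 in replicate 2.

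Arrays and cell markers also differed between the samples. The list of 8 DC markers was above the dim threshold throughout, with a mean level of 10.5 and 10.4 in DMSO, 9.70 in TCDD replicate 1 and 10.1 in TCDD replicate 2, and H2-Aa at 12.9 to 13.3. All 8 had differences below 0, 4 of them without overlap. In the level ranges from 7 to 12, 29.7% to 39.8% of all genes were lower without overlap. H2-Aa, H2-Ab1 and Cd74 lay above a mean level of 12, so these shares do not cover them. Neutrophil markers, of which 11 of 12 were measured, had a mean level of 6.24 and 5.93 in DMSO, 7.31 in TCDD replicate 1 and 6.06 in TCDD replicate 2. Of the 11, 9 had differences above 0 and 3 were higher without overlap, against 43.6% and 20.0% of all genes. At levels from 4 to 7, where most of these markers lay, 23.7% to 29.2% of all genes were higher without overlap. Mmp9 went the other way, with a difference of -0.50 without overlap. S100a8 read 10.3 in TCDD replicate 1 and 5.6 to 6.4 in the others, whereas Camp was higher in both TCDD arrays, at 6.9 and 6.5 against 5.6 and 5.1. The mean of the 11 measured macrophage and monocyte markers was lower in both TCDD arrays, at 8.71 and 8.74 against 9.46 and 9.32. Of the 11, 6 were lower without overlap, and C1qb was higher by 0.40. The share lower without overlap was 24.0% of genes at or above the dim threshold, and 29.7% to 39.8% of all genes at levels from 7 to 12. Csf1r, whose groups overlapped, lay just above these levels. Plasmacytoid DC markers (8 of 10 measured) had means of 7.16 and 6.76 for the DMSO arrays and 7.21 and 6.89 for the TCDD arrays. The means for B cells (6.13 to 6.47), T cells (5.65 to 5.9) and NK cells (6.18 to 6.63) varied by less than those for neutrophils. TCDD replicate 1 also had the largest gap between the 3′ end and the middle of the Gapdh control transcript, at 3.6 against 1.5 to 2.1 in the other arrays. The part of these differences in the values of the interferon-stimulated genes was not tested.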

How the data were processed

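RNA from splenic dendritic cells was measured on 4 Affymetrix mouse arrays, 2 per group. Per the submitters' processing notes, the authors deposited RMA values, which are log2 intensities normalized between arrays; no source used here names the program. The values come in steps of 0.1. The 64 control probe sets were left out, and of the remaining 22626 the platform's annotation gives 20380 a single gene symbol, 691 several and 1555 none. TCDD was compared with DMSO across all probe sets by limma 3.58.1 under R 4.3.3 (lmFit, eBayes, two-sided), with Benjamini-Hochberg adjustment and a threshold of 0.05. The standard errors (SE) and 95% intervals are limma's, with n = 2 arrays per group. No exact permutation test was run, because its smallest p would be 0.33 at this size. The number of arrays limits the precision. The dim threshold is the 40th percentile of the mean level.

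The members, the lists and the rule for naming genes were chosen with earlier results of these data known. Every measured member may be named. Array values are given for members without overlap or with TCDD arrays at least 1 apart, and, chosen after the values were seen, for others. Pathway genes are named where the groups did not overlap. Ifna1 and Ifna2, the interferon genes at or above the dim threshold, are named as well although their groups overlapped. Ifng was added after its values were seen. The fit was tested on simulated data. Alternatives were further quantile normalization, median centring, cyclic loess, removal of dim probe sets, a replicate block, a trended robust prior, other probe sets of a gene and leaving out each array. Motifs were searched as plain letters with Python 3.11.15.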

Additional observations from a re-analysis of the deposited data

How the results depend on the processing

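Limma called 0 of all probe sets, 0 members and 0 pathway genes under each alternative run, with 1521 to 5733 probe sets at an unadjusted p under 0.05. A replicate block kept every call at 0 and left 2047 probe sets at an unadjusted p under 0.05 against 2958. The groups share replicate numbers, and replicate 2 minus 1 correlated at -0.189 between them over all probe sets. That correlation across probe sets cannot show whether the replicate numbers mark pairs of arrays. The crossed block, added after the data were seen, called 0. The members' median of -0.20 became 0.0063 under quantile normalization and -0.0546 under cyclic loess, and -0.20 to -0.15 without 1 array. That of all genes was 0.037 under quantile normalization, 0.00 under cyclic loess and -0.05 under median centring, and -0.10 to 0.05 without 1 array. In TCDD replicate 1 the members' median of -0.15 became -0.25 under median centring and -0.2163 under cyclic loess. The median over probe sets was 6.0 in that array and 5.9 in the others, so median centring lowered all its values against theirs. In TCDD replicate 2 the members' median of -0.20 became -0.0062 under quantile normalization and -0.0574 under cyclic loess. Members lower without overlap numbered 6 under quantile normalization and 16 to 19 without 1 array, where fewer arrays make overlap rarer. Members higher numbered 3 under quantile normalization, 2 under cyclic loess, 3 with the median over all probe sets of each gene, 3 with the next brightest probe set and 4 to 6 without 1 array. Of the 38 members 20 kept their sign or 0 throughout. Quantile normalization turned Ifit3 to 0.10, Oas1a to 0.05, Irf1 to 0.175, Ifih1 to 0.1875, Irgm1 to 0.0125, Igtp to 0.0375, Ifi47 to 0.075, Trim30a to 0.1375 and, in the pathway, Tap1 to 0.0875. Cyclic loess turned Ifit3 to 0.0243, Oas1a to 0.0016, Irf1 to 0.1072, Ifih1 to 0.1068, Igtp to 0.0039, Ifi47 to 0.0042, Trim30a to 0.1073 and Tap1 to 0.0079. Gbp2 became 0.15 with the median of its probe sets and 0.45 with the next brightest, and Iigp1 0.25 with the next brightest. Without 1 array the values ran from -1.05 to 0.65 for Trim30a, -0.45 to 0.05 for Adar, -0.85 to 0.25 for Ifit2, -0.70 to 0.40 for Ifit3, -0.55 to 0.15 for Ifih1, -0.50 to 0.20 for Irgm1, -0.35 to 0.05 for Eif2ak2, -0.40 to 0.10 for Gbp2, -0.10 to 0.70 for Gbp3, -0.50 to 0.10 for Irf1, -0.20 to 0.40 for Tor3a, -0.25 to 0.35 for Zbp1, -0.30 to 0.60 for Oas2, -0.55 to 0.05 for Igtp and -0.10 to 0.80 for Lgals3bp. Where 1 array remained in a group, limma took its spread from the other group. The cause of these sign changes was not tested.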
